A study of Mus musculus with 65 samples.

Results

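The genes described here are 8 loci of the mouse genome, 7 long non-coding RNA genes that carry small nucleolar RNAs (snoRNAs) in their introns, namely Gas5, Snhg1, Snhg3, Snhg5, Snhg6, Snhg8 and Snhg12, and Rack1, a protein-coding gene that carries snoRNAs as well. They were picked by name, as 8 of 24958 RefSeq genes that could be paired with a window at a transcription start site (TSS). The choice was made with results of these data in view and the comparison behind it is not recorded, so values at the start sites are given as a description, with calls but without p-values. The libraries come from E14TG2a embryonic stem cells (strain 129/Ola), which were pulsed with 20 uM EdU for 10 min and harvested straight away (nascent chromatin) or chased in 10 uM thymidine for 30 min, 1 h or 2 h. In the inhibitor experiment a 2 h incubation preceded the pulse, in triptolide, which blocks the XPB subunit of TFIIH and so transcription initiation, in DRB, which blocks the kinase CDK9 and so elongation by RNA polymerase II, or in DMSO, the solvent control. Accessible chromatin was cut with the Tn5 transposase, EdU-labelled fragments were captured on streptavidin, and both the captured fragments (EdU fraction, newly replicated DNA) and the supernatant (unbound fraction) were sequenced, so that 6 groups in each of 2 fractions had 3 libraries each. Further groups were nascent and 2 h samples with added Drosophila S2 cells (spike-in, 2 libraries each), combined peak lists for nascent, 30 min, 1 h, 2 h and untreated steady-state chromatin, and a peak list of chromatin immunoprecipitation for polymerase II phosphorylated on serine 5 (S5P), the form that starts transcription. No source used here states the drug doses or whether the drugs were present in the chase, and the labels do not say which libraries came from separate cultures, so the spread between libraries may be technical.

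Small nucleolar RNAs guide the methylation and pseudouridylation of ribosomal RNA, and most mammalian ones are cut out of the introns of a host transcript. In many host genes the spliced RNA itself codes for no known protein and is short-lived, so the introns carry the product. Host genes and ribosomal protein genes often share a start site in a run of pyrimidines, the 5′ terminal oligopyrimidine motif, and are transcribed strongly in dividing cells. Rack1 encodes a scaffold protein of the small ribosomal subunit and hosts Snord95 and Snord96a. Gas5 was named for its RNA level in growth arrest.

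The annotated starts are shown to tell the promoters apart. Windows were placed by the authors' listed TSS, which lies 179 bp from the RefSeq start at Gas5, 509 bp at Snhg1, 270 bp at Snhg8 and 28 bp at Rack1, so a shown start can lie outside its window, as the second one of Gas5 and that of Snhg1 do. The stretches run from 50 bases before the start to 20 bases from it, on the gene's strand, from RefSeq on GRCm38.p6, and 7 of the 8 genes had an entry, Gas5 with 2 starts. Capitals mark the letters TATA where they begin 40 to 19 bases before the start, and the longest run of pyrimidines (at least 5) that reaches within 5 bases of it.
Gas5, first start (chr1:161034551-161034620, plus strand): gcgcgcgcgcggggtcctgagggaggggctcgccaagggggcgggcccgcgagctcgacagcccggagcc
Gas5, second start (chr1:161035116-161035185, plus strand): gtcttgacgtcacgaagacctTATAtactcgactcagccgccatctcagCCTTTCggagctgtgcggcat
Snhg1 (chr19:8723437-8723506, plus strand): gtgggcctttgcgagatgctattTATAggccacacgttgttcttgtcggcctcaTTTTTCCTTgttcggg
Snhg3 (chr4:132353667-132353736, minus strand): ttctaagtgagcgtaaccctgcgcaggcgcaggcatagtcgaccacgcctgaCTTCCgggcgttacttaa
Snhg5 (chr9:88522878-88522947, minus strand): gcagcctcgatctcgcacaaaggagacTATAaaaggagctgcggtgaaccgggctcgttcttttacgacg
Snhg8 (chr3:123508317-123508386, minus strand): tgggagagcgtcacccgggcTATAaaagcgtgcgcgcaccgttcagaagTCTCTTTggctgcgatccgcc
Snhg12 (chr4:132308628-132308697, plus strand): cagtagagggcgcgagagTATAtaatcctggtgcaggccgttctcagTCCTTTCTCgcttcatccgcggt
Rack1 (chr11:48800310-48800379, plus strand): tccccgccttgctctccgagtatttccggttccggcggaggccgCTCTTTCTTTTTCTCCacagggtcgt
TATA stood in 5 of these 8 start sites, and in 5.61% of the 32851 RefSeq promoters of the same length, on the gene's strand. A pyrimidine run stood in 6 of the 8 and in 32.9% of all promoters, the longest being the 16 bases at Rack1. These matches describe letters and say nothing of a factor bound there.

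The loci are short. On GRCm38 (mm10) Gas5 spans chr1:161034601-161038539 and Rack1, the longest, chr11:48800360-48806241, while Snhg8 (chr3:123507552-123508336) is 785 bp long and holds only Snora24. Snhg3 (chr4:132351933-132353686) holds Snora73a and Snora73b, Snhg12 (chr4:132308678-132311024) holds Snora16a, Snora44, Snora61 and Snord99, and Snhg6 (chr1:9942025-9944118) holds Snord87. Snhg1 (chr19:8723487-8726326) carries 8 annotated snoRNAs, Snord22 among them, and Snhg5 (chr9:88521052-88522897) carries 2. Other genes lie within 1000 bp of the TSS at 4 loci, Zbtb37 at Gas5, Slc3a2 at Snhg1, Mcmdc2 at Snhg6 and Gm36109 at Rack1, so signal there cannot be given to the host gene alone. For Snhg5 and Snhg6 the authors' list held no TSS in reach of the annotated start, and the window at the RefSeq start was used. For Snhg1 the listed TSS lies 509 bp inside the gene.

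Depth bounds what single windows can show. The EdU libraries held 1300000 to 5550000 reads and the unbound libraries 2350000 to 14360000 (rounded). In the EdU fraction a member's start window held between 0 and 51 reads, with a median of 9.5, and in the unbound fraction between 1 and 131, with a median of 56. Reads carry no molecular identifiers, so these numbers bound counting error only. The embryonic stem cell markers had a start peak in 8 of 8 cases at steady state, against 4 of 5 primitive endoderm and 5 of 6 fibroblast markers, and in the S5P list in 6 of 8, 1 of 5 and 0 of 6 cases.

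In the 1 h, steady-state and S5P lists all 8 loci had a peak at both ends of the gene. At Snhg3 and Snhg8 some peaks were counted at both ends. In the deposited peak lists, which hold positions combined over replicates by the authors, 7 members had a peak within 1000 bp of the TSS in nascent chromatin and all 8 in the 4 other lists. Of the 31995 listed TSSs, 36.1% had one in nascent chromatin, 42.8% after 30 min, 45.9% after 1 h, 50.8% after 2 h and 56.9% in the untreated steady state. Gas5 was the member with no nascent start peak. In the S5P list 8 of 8 members had a start peak, against 18.5% of all listed TSSs.

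A second open region followed each gene, at Snhg6 in the 1 h and steady-state lists alone. The S5P peak past the end of Snhg6 was 125 bp long. In the 3 kb past the annotated gene end, 6 members had a nascent peak, 7 a peak after 30 min, 8 after 1 h, 7 after 2 h and 8 in the steady state, against 15.1%, 18.9%, 21.3%, 23.8% and 33.3% of 27026 genes. The S5P list had a peak there at 8 of 8 members, against 4.17% of all genes. This zone was chosen after the profiles of these loci had been seen, so its counts are a description of where the signal lies, and zones of other genes can hold the start of a neighbour. Among the members, only the zone of Snhg3 held a listed TSS, and other genes reach into some zones, Mcmdc2 into that of Snhg6, Prss12 into that of Snhg8, Trnau1ap into that of Snhg12 and Trim41 into that of Rack1.

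The nascent peak past the end of Gas5 was chr1:161039776-161040775 and no nascent peak lay within 1000 bp of its start. At Rack1 the nascent peak past the end was 2725 bp long (chr11:48806776-48809500), and at Snhg3 1500 bp (chr4:132350501-132352000). Snhg8 and Snhg6 had none in nascent chromatin. Snhg8 had peaks at chr3:123506001-123506650 and chr3:123506751-123507425 by 30 min, whereas Snhg6 had a peak of 475 bp at 1 h (chr1:9939751-9940225) and none at 2 h. S5P peaks ran along the same stretches, for example chr11:48806201-48808200 at Rack1 and chr1:161039801-161041050 at Gas5, and a single S5P peak of 3700 bp covered Snhg3 and its 3′ side (chr4:132350276-132353975).

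In mature chromatin of DMSO-treated cells the signal past the end was higher than that at the start at 7 of the 8 loci. This sets the highest window past the end, picked in the same libraries, against a single start window. The mean over the 3 kb past the end gave the same order at each locus. The share of all genes with this order was not counted. Reads-per-million values (RPM, reads scaled to the library's total) were recovered from the deposited log2(RPM + 1) values. The highest window past the end averaged 34.9 ± 6.36 RPM at Snhg3, 34.7 ± 5.94 at Rack1, 34.2 ± 1.94 at Gas5 and 26.1 ± 6.41 at Snhg1 in the 2 h EdU libraries with DMSO (SD, n = 3). It averaged 20.1 ± 4.20 at Snhg8, 19.9 ± 1.91 at Snhg5 and 18.4 ± 3.67 at Snhg12. Snhg6 stood apart with 3.91 ± 0.878 RPM, below its start window (6.07 ± 2.23). The centre of that window lay between 476 bp (Snhg12) and 1462 bp (Gas5) past the end.

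**Figure D1:**
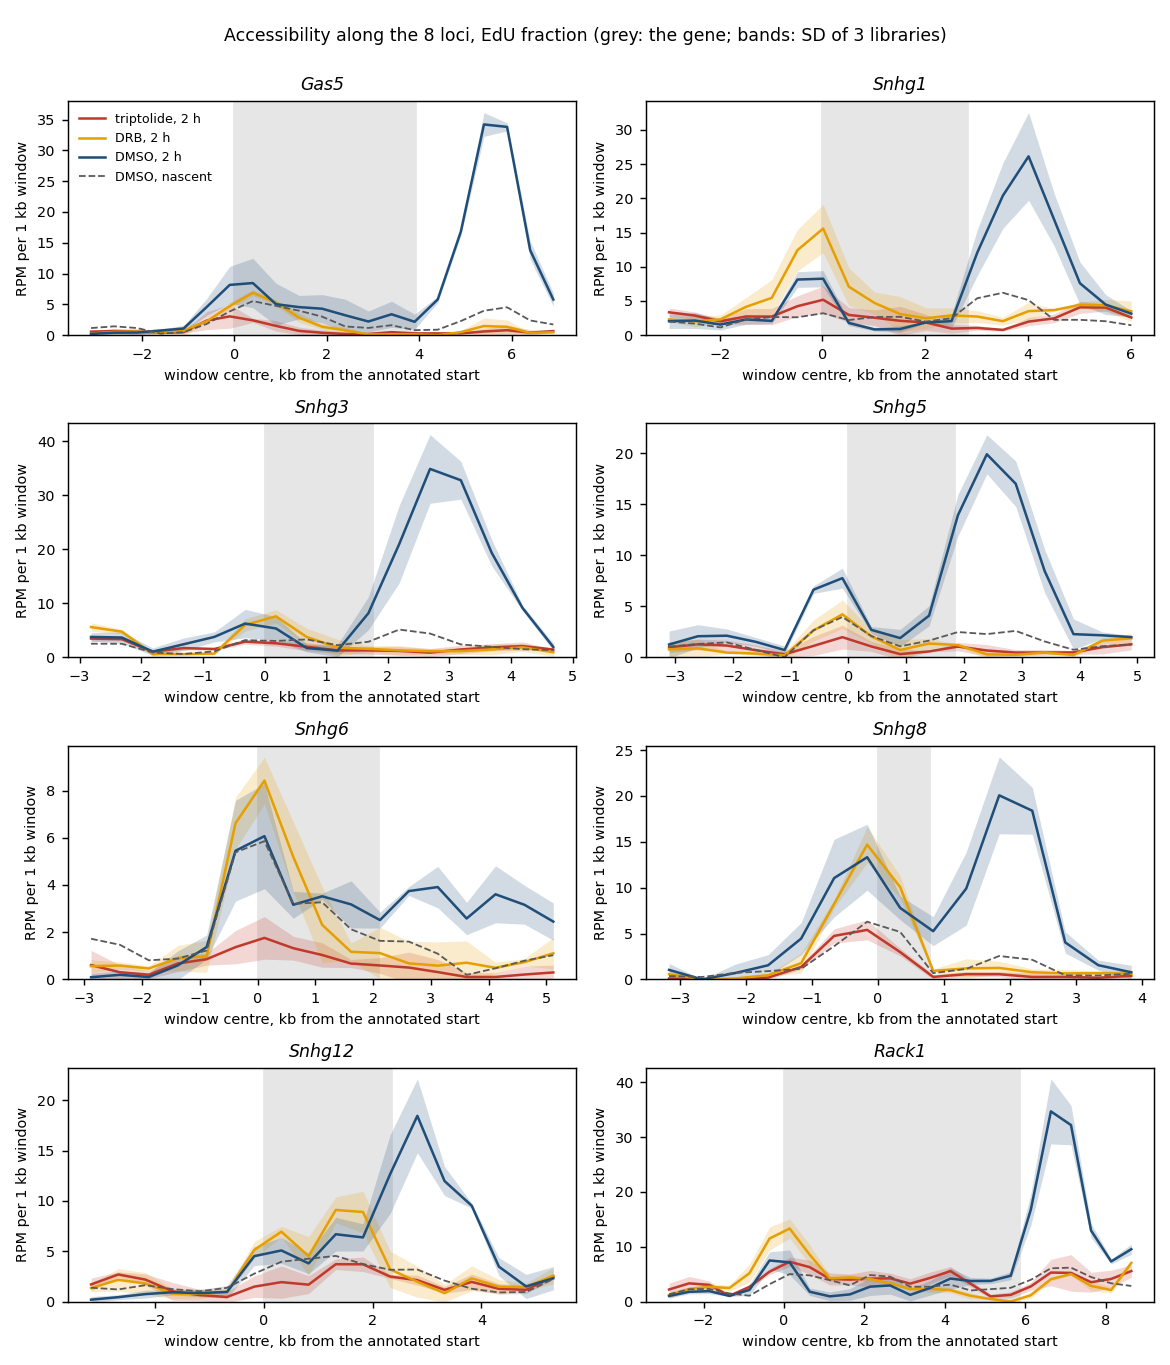
Mean accessibility in RPM per 1 kb window, sampled every 500 bp along each locus, plotted against the distance of the window's centre from the annotated start in the direction of transcription; lines are means of 3 EdU libraries (dashed, nascent DMSO), bands their SD, and the gene is grey. With DMSO at 2 h the highest window lay past the gene end at 7 loci (26.1 RPM at Snhg1, 34.2 at Gas5), and with triptolide and DRB that part of the profile was low.

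For every RefSeq gene with a known strand, the mean RPM of the windows centred 0 to 3 kb past its end was then taken, so that the members could be read against all genes. A gene was called where limma's moderated test gave an adjusted p under 0.05 over all genes tested (Benjamini-Hochberg), and log2 differences are on the log2(RPM + 1) scale, with their SE. In bulk libraries a lower value cannot tell fewer open copies of a locus from less accessibility per copy. All 8 members passed the filter on low values, a signal in at least 3 libraries. The median gene had 0.377 RPM there in the 2 h EdU libraries with DMSO and the 99th percentile was 6.87 RPM, a level passed by every member but Snhg6.

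In DMSO-treated cells this zone was low right after replication and high 2 h later, and 8 of 8 members were called higher at 2 h than in nascent chromatin, against 8.15% of 26218 genes called higher and 4.27% called lower. Gas5 had 18.2, 18.3 and 18.5 RPM in the 2 h libraries, against 2.02, 3.28 and 2.60 in the nascent ones. Snhg3 had 16.8, 22.4 and 20.4 RPM at 2 h, against 2.02, 3.28 and 3.04 in nascent chromatin. The 2 groups lay far apart at both genes, with log2 differences of 2.43 ± 0.21 and 2.47 ± 0.20, the second and the first largest rise of all genes tested. The zone was chosen after the members' profiles were seen, so such ranks are a description. Snhg8, the shortest gene, had 8.12, 12.3 and 9.13 RPM at 2 h, against 1.06, 1.93 and 0.705 in nascent chromatin (2.30 ± 0.21). Snhg5 had 10.9, 11.6 and 9.36 RPM at 2 h, against 1.73, 1.51 and 2.12 (2.06 ± 0.20). Neither gene's groups overlapped. Rack1 had 16.6, 20.4 and 19.7 RPM at 2 h, against 4.42, 4.29 and 4.72 in nascent chromatin, the highest nascent level of the members (1.86 ± 0.22). Snhg12 and Snhg1 differed by 1.68 ± 0.22 and 1.67 ± 0.21. Snhg6, at 3.25 ± 0.536 RPM at 2 h and 0.964 ± 0.337 in nascent chromatin, had the smallest change (1.12 ± 0.22).

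Set against the unbound fraction, the nascent zone was depleted and the 2 h zone was not called. The fractions were compared as unpaired libraries, although a supernatant and its captured fragments come from the same sample. In nascent DMSO samples the EdU fraction was lower at 8 of 8 members, against 13.9% of 26398 genes called lower, from -1.005 ± 0.199 at Snhg6 to -2.26 ± 0.19 at Gas5. At Gas5 that was 2.63 ± 0.632 RPM in the EdU libraries and 16.4 ± 2.54 in the unbound ones. At 2 h no member was called in either direction, with differences between -0.02 ± 0.20 (Rack1) and 0.47 ± 0.18 (Snhg1), and 0.00379% of genes were called higher and 0.0341% lower. At an unadjusted p under 0.05, 1 member was higher, Snhg1, where 1759 of 26398 genes passed in either direction. Gas5 then stood at 18.4 ± 0.148 RPM in the EdU and 14.6 ± 1.64 in the unbound libraries.

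With both inhibitors the zone past the end was low at 2 h. Comparisons of either drug with DMSO share the DMSO libraries. All 8 members were called lower with triptolide than with DMSO in the 2 h EdU libraries, against 8.69% of 26218 genes, and all 8 with DRB, against 3.05%. Gas5 had 0.528, 0.776 and 0.222 RPM with triptolide, and 0.510, 1.18 and 0.387 with DRB, against 18.2, 18.3 and 18.5 with DMSO. Its log2 differences, -3.70 ± 0.21 with triptolide and -3.55 ± 0.21 with DRB, were the lowest of all genes tested in both comparisons. That rank too is a description, in a zone chosen after the profiles were seen. No treated library came near a control one.

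Snhg3 had 1.63, 1.45 and 1.33 RPM with triptolide, and 1.31, 1.80 and 0.773 with DRB, against 16.8, 22.4 and 20.4 with DMSO. That placed it at -3.07 ± 0.20 and -3.20 ± 0.20. Snhg8 had 0.432, 0.103 and 0.532 RPM with triptolide, and 0.437, 1.06 and 1.26 with DRB, against 8.12, 12.3 and 9.13 with DMSO (-3.00 ± 0.21 and -2.51 ± 0.21). Snhg5 had 0.432, 0.828 and 0.798 RPM with triptolide, and 0.583, 0.622 and 0.821 with DRB, against 10.9, 11.6 and 9.36 with DMSO (-2.79 ± 0.20 with either drug). In these genes the treated levels were those of a few reads per window.

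Rack1 and Snhg1 kept more signal. Rack1 had 2.40, 5.12 and 5.72 RPM with triptolide, and 4.01, 3.48 and 3.62 with DRB, against 16.6, 20.4 and 19.7 with DMSO (-1.93 ± 0.22 and -2.08 ± 0.22). Snhg1 had 2.35, 2.48 and 2.35 RPM with triptolide, and 3.79, 3.48 and 3.09 with DRB, against 11.4, 18.6 and 13.7 with DMSO (-2.17 ± 0.21 and -1.78 ± 0.21). The groups did not overlap at either gene. Snhg12 differed by -1.73 ± 0.22 and -1.71 ± 0.22, and Snhg6 by -1.73 ± 0.22 and -1.36 ± 0.22. Between the 2 drugs no member was called at 2 h, where 3.02% of genes were called lower and 6.73% higher with triptolide than with DRB, and the differences ran from -0.49 ± 0.21 (Snhg8) to 0.14 ± 0.22 (Rack1). At an unadjusted p under 0.05, 1 member was lower, Snhg8, where 5724 of 26218 genes passed in either direction.

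**Figure D2:**
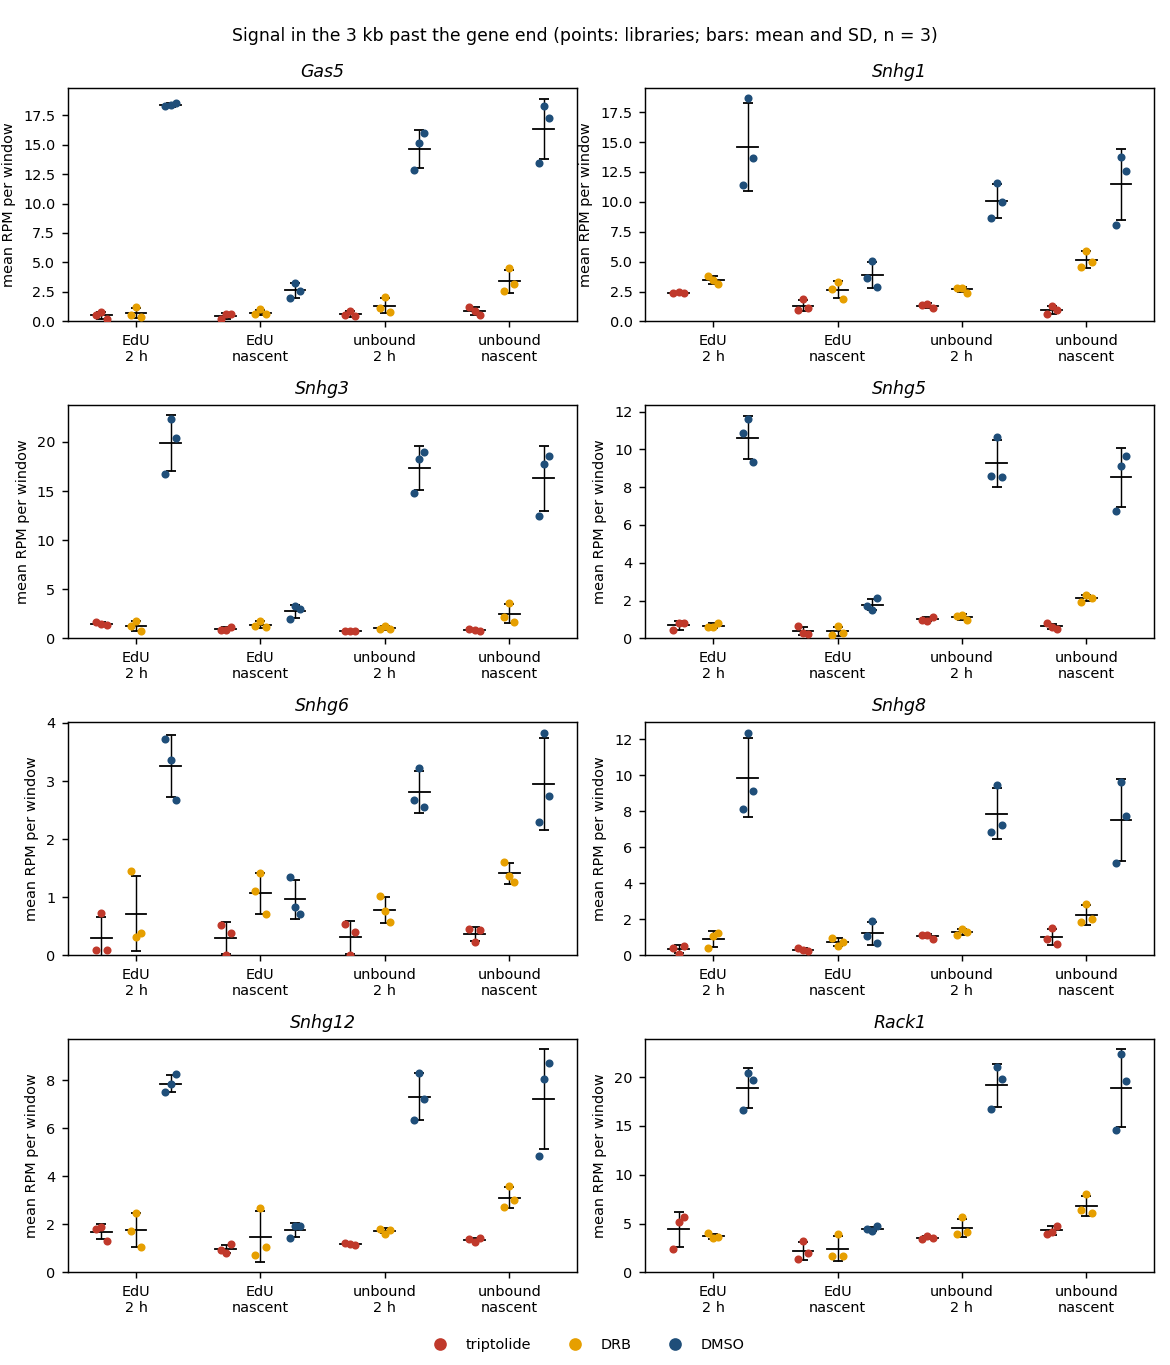
Mean RPM of the 1 kb windows centred in the 3 kb past each gene's end (vertical axis), by fraction and time (horizontal axis), with triptolide red, DRB orange and DMSO blue; points are libraries, and bars are the mean and SD of 3. Treated libraries lay below every DMSO library of their time point in both fractions at Gas5, where 2 h EdU levels were 0.509 with triptolide, 0.693 with DRB and 18.4 with DMSO.

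With an inhibitor the zone differed little between nascent and 2 h chromatin. With triptolide 1 member was called higher at 2 h, Rack1 with 4.41 ± 1.77 RPM at 2 h and 2.17 ± 0.909 in nascent chromatin (0.75 ± 0.22), against 3.54% of genes. That call was lost without nascent triptolide replicate 1 or 3 (0.57 and 0.72) or 2 h triptolide replicate 2 or 3 (0.63 and 0.56). With DRB no member was called in either direction, where 9.33% of genes were called higher and 4.02% lower. At an unadjusted p under 0.05, 1 member, Rack1, was higher, and 6954 of 26218 genes passed in either direction. The test of the difference itself, the change over 2 h with the drug minus that with DMSO, called 8 of 8 members lower with triptolide, against 0.896% of genes, and 8 of 8 with DRB, against 0.305%. With triptolide it ran from -2.38 ± 0.30 (Gas5) to -1.11 ± 0.30 (Rack1, with Snhg1 at -1.11 ± 0.29), and with DRB from -2.55 ± 0.29 (Snhg3) to -1.35 ± 0.30 (Rack1). With 1 library left out, between 5 and 8 members stayed past the threshold with triptolide and between 6 and 8 with DRB, the lowest counts being 5 without 2 h DMSO replicate 2 or 2 h triptolide replicate 3 and 6 without 2 h DMSO replicate 2. With triptolide the members lost were Rack1 without nascent DMSO replicate 1 or 2, nascent triptolide replicate 2, 2 h DMSO replicate 2 or 3 or 2 h triptolide replicate 1 (-1.10 to -0.80), Snhg6 without nascent DMSO replicate 2 or 3, nascent triptolide replicate 1 or 3, 2 h DMSO replicate 1 or 2 or 2 h triptolide replicate 1 or 3 (-1.11 to -1.01), Snhg1 without nascent DMSO replicate 3, nascent triptolide replicate 2, 2 h DMSO replicate 2 or 2 h triptolide replicate 3 (-1.10 to -0.93) and Snhg12 without 2 h triptolide replicate 3 (-1.14). With DRB they were Rack1 without nascent DRB replicate 2 (-1.05) or 2 h DMSO replicate 2 (-1.29) and Snhg1 without 2 h DMSO replicate 2 (-1.19). With a pseudocount of 0.25 RPM 4 members were called with triptolide and 5 with DRB. The share of all genes called under that setting is not given here, so these counts have nothing to be read against.

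In nascent chromatin, where the zone was low in all groups, fewer members passed the threshold. Triptolide gave 5 lower calls against 1.6% of genes, at Gas5 (-1.32 ± 0.21), Snhg1 (-1.06 ± 0.21), Snhg5 (-1.02 ± 0.20), Snhg3 (-0.93 ± 0.20) and Rack1 (-0.83 ± 0.22). DRB gave 3 against 2.02%, at Gas5 (-1.04 ± 0.21), Snhg5 (-1.04 ± 0.20) and Rack1 (-0.73 ± 0.22). Gas5 had 0.174, 0.603 and 0.600 RPM with triptolide, and 0.630, 1.03 and 0.605 with DRB, against 2.02, 3.28 and 2.60 with DMSO. Rack1 lost its nascent call with triptolide when nascent DMSO replicate 1, 2 or 3 (-0.83, -0.85 and -0.79) or nascent triptolide replicate 1 or 3 (-0.64 and -0.79) was left out, and with DRB likewise without nascent DMSO replicate 1, 2 or 3 (-0.74, -0.76 and -0.70) or nascent DRB replicate 1 or 3 (-0.57 and -0.59).

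The unbound fraction was lower with the drugs as well. There 8 of 8 members were called lower with triptolide in the nascent samples, against 5.41% of 26323 genes, and 8 of 8 with DRB, against 4.83%. At 2 h the same counts stood against 10.9% with triptolide and 7.46% with DRB. Gas5 had 1.23, 0.879 and 0.557 RPM with triptolide, and 2.56, 4.50 and 3.13 with DRB, against 13.5, 18.3 and 17.3 with DMSO in the nascent unbound libraries. The log2 differences were -3.20 ± 0.16 with triptolide and -1.99 ± 0.16 with DRB. Snhg3 had 0.909, 0.879 and 0.777 RPM with triptolide, and 2.17, 3.58 and 1.72 with DRB, against 12.5, 17.8 and 18.6 with DMSO (-3.20 ± 0.14 and -2.33 ± 0.14). At both genes the DRB libraries lay between those with triptolide and those with DMSO.

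That order held at the other members in the nascent unbound samples. Snhg1 averaged 0.968 ± 0.325 RPM with triptolide, 5.14 ± 0.716 with DRB and 11.5 ± 2.98 with DMSO. Rack1 averaged 4.30 ± 0.440 RPM with triptolide, 6.84 ± 1.03 with DRB and 18.9 ± 3.98 with DMSO. Snhg6 averaged 0.373 ± 0.120, 1.41 ± 0.178 and 2.95 ± 0.789 RPM with triptolide, DRB and DMSO. The difference between the drugs was not tested in this fraction. At 2 h the unbound levels with DRB were lower still, with 1.34 ± 0.650 RPM at Gas5 and 1.04 ± 0.180 at Snhg3, and the log2 differences from DMSO ran from -3.17 ± 0.14 (Snhg3) to -1.10 ± 0.14 (Snhg6). With DMSO no member was called between 2 h and nascent unbound samples, where 0% of genes were called higher and 0.0038% lower. At an unadjusted p under 0.05, 0 members passed, against 1793 of 26323 genes.

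The differences themselves were compared between fractions. Past the end in nascent samples, triptolide minus DMSO was less negative in the EdU than in the unbound fraction at 7 of 8 members, against 0.898% of 26398 genes called in that direction. The differences ran from 1.06 ± 0.28 (Rack1) to 2.28 ± 0.25 (Snhg3), and Snhg6 was not called (0.91 ± 0.28). On this scale the low nascent EdU level bounds the fall. A drop to 0 RPM from the DMSO level would be -1.85 at Gas5 and -1.12 at Snhg8 in the EdU fraction, against unbound differences of -3.20 and -2.06. At 7 of 8 members, all but Rack1, the unbound difference with triptolide was larger than the EdU fraction allowed, and with DRB at 4, Snhg3 among them, so these differences between fractions are in part set by the scale. With DRB, Snhg3 was called likewise (1.68 ± 0.25), against 0.205% of genes. At 2 h the single call was Snhg8, more negative in the EdU fraction with triptolide (-0.91 ± 0.27), against 1.1% of genes. Rack1 lost its call without EdU DMSO replicate 1 or 2, EdU triptolide replicate 2, unbound DMSO replicate 2 or 3 or any unbound triptolide replicate of the nascent samples (0.84 to 1.13). Snhg8 lost it without EdU DMSO replicate 2 or 3, EdU triptolide replicate 1 or 2, unbound DMSO replicate 1 or 3 or any unbound triptolide replicate at 2 h (-0.95 to -0.75).

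**Figure D3:**
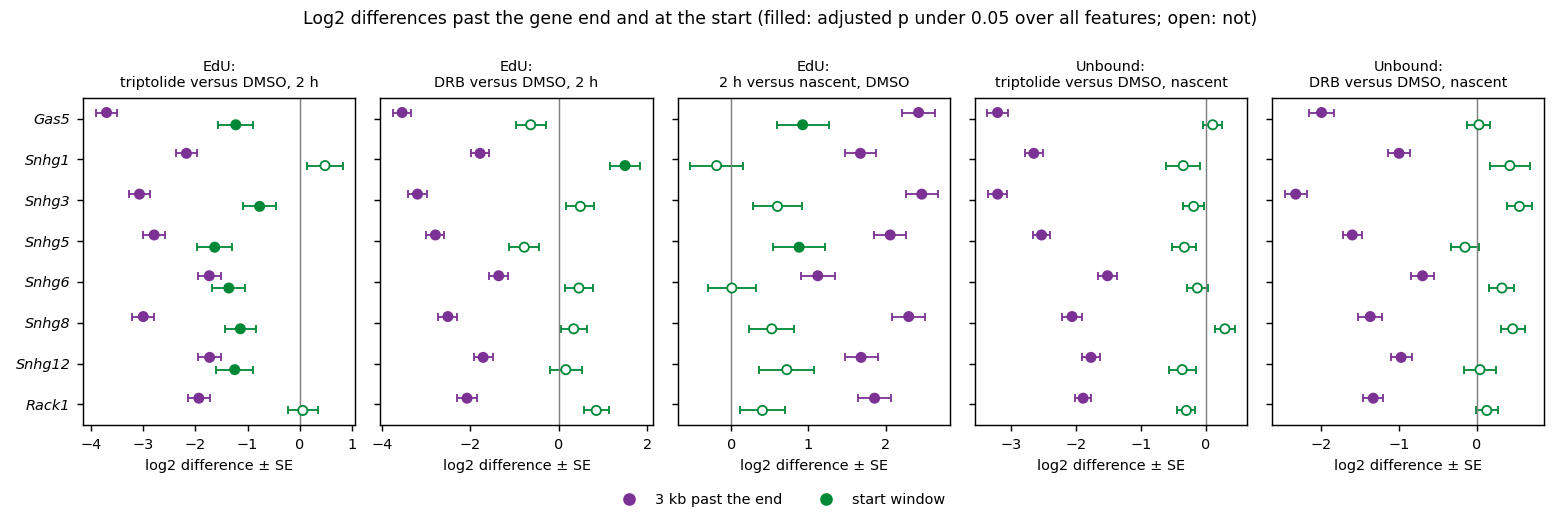
Log2 differences with their SE (horizontal axis) for each member (vertical axis) in the 3 kb past the gene end (purple) and in the start window (green), for triptolide and DRB against DMSO at 2 h, for 2 h against nascent chromatin and for both drugs in nascent unbound samples; filled points had an adjusted p under 0.05. Past the end all 8 members were called in each of the 5 comparisons, and the differences with DRB at 2 h ran from -3.55 to -1.36, while at the start they ran from -0.78 to 1.50.

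At the start sites the members took different courses, and at 2 h their differences with the drugs were smaller than past the end at most members. The 2 h DMSO level bounds a fall on this scale, and it was lower at the start at all members but Snhg6. At Snhg1 it averaged 1.78 RPM at the start and 14.6 past the end. The scale can thus set part of this contrast. In nascent EdU chromatin with triptolide the difference at the start was the larger at some members, Snhg5 and Snhg6 among them. All 8 start windows passed the filter. In DMSO-treated cells 2 were called higher at 2 h than in nascent chromatin, against 31.2% of 29801 windows. They were Gas5, with 11.6, 6.47 and 6.36 RPM at 2 h and 2.31, 5.55 and 3.70 in nascent chromatin (0.92 ± 0.34), and Snhg5, with 8.89, 7.19 and 7.19 RPM at 2 h and 5.19, 4.54 and 2.12 in nascent chromatin (0.88 ± 0.34). Gas5 lost the call without nascent DMSO replicate 1 (0.67) or 3 (0.93) or 2 h DMSO replicate 1 (0.67), and Snhg5 without nascent DMSO replicate 3 (0.57) or 2 h DMSO replicate 1 (0.79), 2 or 3 (0.92 each). The count was 0 with each library centred on its median and 6 with libraries scaled to background windows, and the median difference over all windows was 0.34. No share over all windows is given here for these 2 settings. Snhg6 had 4.60, 8.63 and 4.98 RPM at 2 h, against 5.19, 6.56 and 5.82 in nascent chromatin, a difference of 0.00 ± 0.31.

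With DRB the start windows were called higher at 2 h than in nascent chromatin at 8 of 8 members, against 35.1% of windows called higher and 1.97% lower. Rack1 had 11.4, 13.8 and 14.8 RPM at 2 h with DRB, against 5.20, 2.31 and 3.93 in nascent chromatin with DRB (1.61 ± 0.29). Snhg3 had 6.55, 8.96 and 7.25 RPM at 2 h, against 1.89, 2.31 and 2.42 (1.41 ± 0.32). Gas5, the member with the lowest nascent start signal with DRB, had 5.24, 4.85 and 4.06 RPM at 2 h, against 1.89, 0 and 1.51. In the library with no read, 3 reads would be 2.31 RPM. Centring each library on its median left 5 of the 8 calls, for which no share over all windows is given here. The median difference over all windows without centring was 0.44. Snhg5 (0.88 ± 0.34) lost its call without nascent DRB replicate 1 or 2 (0.78 and 0.82) or 2 h DRB replicate 1 or 3 (0.78 and 0.73). With triptolide the single call was Rack1, at 7.25 ± 0.838 RPM at 2 h and 3.08 ± 0.381 in nascent chromatin (1.01 ± 0.29), against 14.1% of windows called higher and 0.389% lower. The change over 2 h with a drug minus that with DMSO was called at no start window of the members (limma). With triptolide 0.0302% of windows were called higher and 0.419% lower, and with DRB 0.0134% and 0.00671%. With DRB 3 members were higher at an unadjusted p under 0.05, Snhg1 (1.91 ± 0.49), Snhg6 (1.32 ± 0.44) and Rack1 (1.21 ± 0.41), with triptolide 0, and limma-voom called 0 with either drug. Of 29801 windows, 2240 passed that p with DRB and 3320 with triptolide, in either direction.

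Triptolide and DRB gave unlike values at most starts in 2 h chromatin, while at Gas5 and Snhg5 the means with both drugs lay below DMSO. With triptolide 6 members were called lower than with DMSO, against 28.6% of windows called lower and 2.72% higher, namely Snhg5 (-1.63 ± 0.34), Snhg6 (-1.36 ± 0.31), Snhg12 (-1.25 ± 0.36), Gas5 (-1.23 ± 0.34), Snhg8 (-1.14 ± 0.29) and Snhg3 (-0.77 ± 0.32). Snhg8 had 2.59, 3.41 and 2.93 RPM with triptolide, against 9.20, 7.55 and 6.64 with DMSO. Rack1 did not differ beyond its spread, with 6.34, 7.45 and 7.98 RPM with triptolide and 9.20, 7.55 and 4.70 with DMSO (0.05 ± 0.29). With DRB no member was called lower, where 0.621% of windows were, and 1 was called higher, against 0.201%. That was Snhg1, with 6.55, 10.1 and 4.64 RPM with DRB and 2.15, 1.80 and 1.38 with DMSO (1.50 ± 0.34), at a window centred 514 bp inside the gene. At the window of the RefSeq start the difference was 0.83 and not called, and the call was also lost without 2 h DMSO replicate 2 or 3 (1.51 and 1.39) or 2 h DRB replicate 1 or 2 (1.52 and 1.24). Of the triptolide calls, Gas5 was lost without 2 h DMSO replicate 1 (-0.97), Snhg12 without 2 h triptolide replicate 2 (-0.84), and Snhg3 without 2 h DMSO replicate 1 or 2 (-0.52 and -0.78) or 2 h triptolide replicate 1, 2 or 3 (-0.88, -0.75 and -0.68).

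Compared with each other at 2 h, triptolide gave lower start signal than DRB at 6 members, against 14.8% of windows called lower and 1.21% higher. Snhg6 differed most (-1.81 ± 0.31), with 1.15, 2.79 and 1.33 RPM with triptolide and 7.86, 7.84 and 9.57 with DRB. Snhg8 (-1.47 ± 0.29), Snhg12 (-1.41 ± 0.36), Snhg3 (-1.26 ± 0.32), Snhg1 (-1.02 ± 0.34) and Rack1 (-0.79 ± 0.29) followed. Gas5 (-0.59 ± 0.34) and Snhg5 (-0.85 ± 0.34) were not called. Rack1 lost the call in each of the 6 cases with 1 library left out (-0.89 to -0.71), Snhg1 without 2 h DRB replicate 1 or 2 (-1.04 and -0.76) or 2 h triptolide replicate 1 (-0.77), and Snhg12 without 2 h triptolide replicate 2 (-1.0004).

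**Figure D4:**
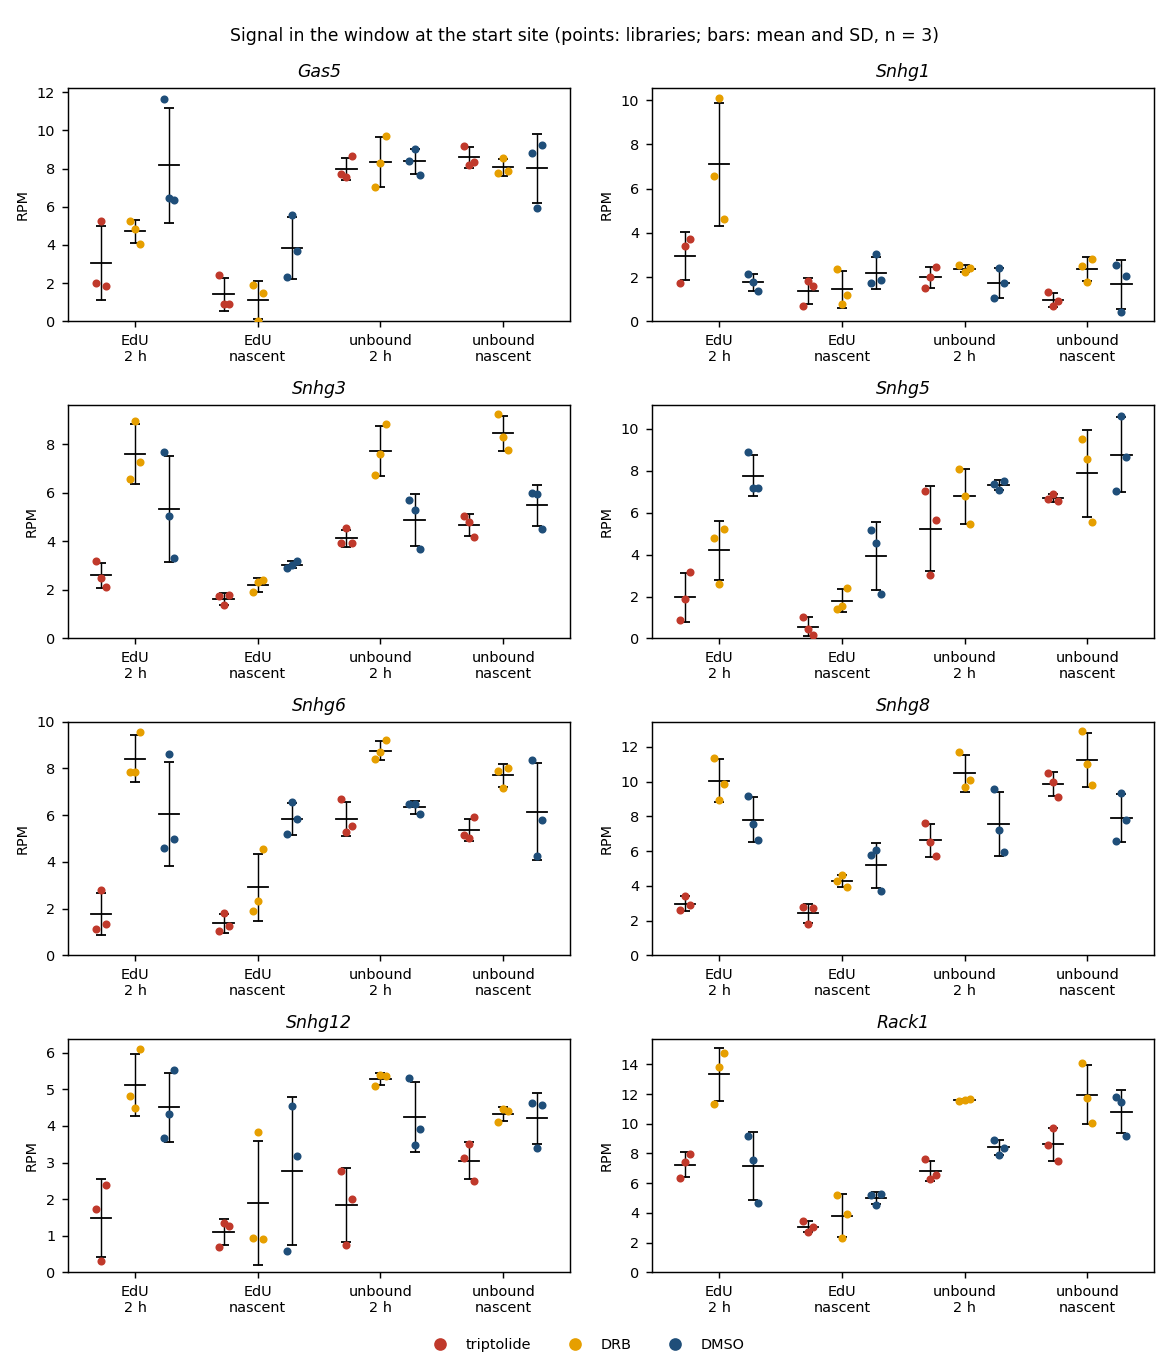
RPM of the 1 kb window at each member's start (vertical axis) by fraction and time (horizontal axis), with triptolide red, DRB orange and DMSO blue; points are libraries, bars the mean and SD of 3. In the 2 h EdU libraries Snhg8 averaged 2.98 RPM with triptolide, 10.1 with DRB and 7.80 with DMSO, and in the unbound libraries the 3 treatments lay closer together.

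In nascent chromatin 4 start windows were called lower with triptolide, against 11.6% of windows, and none was called higher, against 0.45%. They were Snhg5 (-1.64 ± 0.34), Snhg6 (-1.54 ± 0.31), Gas5 (-1.01 ± 0.34) and Snhg8 (-0.84 ± 0.29). Snhg6 had 1.04, 1.81 and 1.26 RPM with triptolide, against 5.19, 6.56 and 5.82 with DMSO. Between triptolide and DRB no nascent start window was called (limma), where 0.0872% of windows were called higher and 0.577% lower. At an unadjusted p under 0.05, 3 members were lower, where 4014 of 29801 windows passed in either direction, and limma-voom called 0. With DRB the Gas5 window was called lower than with DMSO (-1.27 ± 0.34), 1 member against 3.37% of windows. That call was lost without nascent DMSO replicate 2 (-1.03) or 3 (-1.26) or nascent DRB replicate 2 (-0.79). With triptolide Gas5 lost its call without nascent DMSO replicate 2 (-0.77) or 3 (-1.01) or nascent triptolide replicate 2 or 3 (-0.87 each), and Snhg8 without nascent DMSO replicate 1 or 2 (-0.76 and -0.73) or nascent triptolide replicate 1, 2 or 3 (-0.91, -0.70 and -0.90).

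Few unbound start windows were called. With triptolide no member was called in the nascent samples, where 0.709% of windows were called higher and 1.53% lower. At an unadjusted p under 0.05, 1 member, Rack1, was lower, where 4405 of 30312 windows passed in either direction, and limma-voom called 0. At 2 h Snhg12 was called lower, with 2.76, 0.756 and 2.01 RPM with triptolide and 5.31, 3.48 and 3.92 with DMSO (-0.94 ± 0.21), against 12.2% of 30312 windows called lower and 2.26% higher. Between 2 h and nascent unbound samples with triptolide Snhg8 was called lower (-0.52 ± 0.15), against 10.7% of windows, a call lost without nascent triptolide replicate 1 or 2 (-0.47 and -0.51) or 2 h triptolide replicate 2 or 3 (-0.51 and -0.43). With DRB no unbound start window was called at either time, where 0.267% of windows were called higher and 0.637% lower in nascent samples and 0.769% and 0.713% at 2 h. At an unadjusted p under 0.05, 3 members were higher in nascent samples and 4 at 2 h. Of all 30312 windows, 4037 and 3495 passed that p in either direction. limma-voom called 1 member at each time, for which no share over all windows is given here. Snhg3 came nearest in the 2 h samples, with 6.74, 7.61 and 8.82 RPM with DRB and 5.70, 5.28 and 3.68 with DMSO (0.58 ± 0.16). In nascent DMSO samples the EdU fraction was lower than the unbound at 5 start windows, against 43.2% of 30471 called lower and 4.37% higher, at Snhg5 (-1.03 ± 0.28), Rack1 (-0.97 ± 0.21), Gas5 (-0.93 ± 0.29), Snhg3 (-0.68 ± 0.22) and Snhg8 (-0.54 ± 0.21). With libraries centred on their median 1 of these calls was left, and Gas5 lost its call without nascent DMSO EdU replicate 1 (-0.68) and Snhg8 without EdU replicate 3 (-0.35) or unbound replicate 2 or 3 (-0.42 and -0.54). The share of all windows called under centring is not given here.

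At the start windows triptolide minus DMSO was more negative in the EdU than in the unbound fraction at 3 members in nascent samples, against 7.09% of windows called in that direction and 0.331% in the other. They were Snhg6 (-1.41 ± 0.34), Snhg5 (-1.32 ± 0.39) and Snhg8 (-1.13 ± 0.29). At 2 h there were 4, against 12.6% of windows, Snhg6 (-1.26 ± 0.34), Gas5 (-1.17 ± 0.41), Snhg5 (-1.15 ± 0.39) and Snhg8 (-0.98 ± 0.29). In nascent samples Snhg5 lost its call without EdU DMSO replicate 1 or 2, EdU triptolide replicate 2 or 3, unbound DMSO replicate 1 or 3 or unbound triptolide replicate 1 or 2 (-1.32 to -1.13). At 2 h, of the 12 cases with 1 library left out, Gas5 stayed called only without EdU DMSO replicate 2 or 3 or EdU triptolide replicate 2, and Snhg5 only without EdU triptolide replicate 3 or unbound triptolide replicate 2 (otherwise -1.21 to -0.91 and -1.20 to -0.86). Snhg8 lost its call without EdU DMSO replicate 1, unbound DMSO replicate 3 or unbound triptolide replicate 1 (-0.89 to -0.84). With DRB no member was called in nascent samples (limma), where 0.0459% and 0.397% of windows were called higher and lower. At an unadjusted p under 0.05, 4 members were lower, where 4334 of 30471 windows passed in either direction, and limma-voom called 0.

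Windows just inside the genes are given as values only. In the window of Rack1 centred 640 bp past the start, the 2 h EdU libraries averaged 6.27 ± 1.29 RPM with triptolide, 8.54 ± 1.80 with DRB and 1.79 ± 0.673 with DMSO. The unbound 2 h libraries had 4.17 ± 0.805, 6.81 ± 0.327 and 2.16 ± 0.563 RPM with triptolide, DRB and DMSO. At Snhg3, 686 bp past the start, the 2 h EdU means were 1.95 ± 0.773 with triptolide, 3.76 ± 1.61 with DRB and 1.71 ± 0.705 with DMSO. Windows of this kind were read at all 8 members, and at Snhg1 and Snhg8 they are the start windows. The 2 h EdU libraries with DRB lay above those with DMSO without overlap at Snhg1, Snhg3, Snhg12 and Rack1. They overlapped them at Gas5, Snhg5, Snhg6 and Snhg8. With triptolide the libraries lay below those with DMSO at Gas5, Snhg5, Snhg6 and Snhg8, above them at Rack1, and overlapped them at Snhg1, Snhg3 and Snhg12. How many of all genes have libraries apart in this way was not counted, so this cannot be read as a trait of the members. Gas5 averaged 2.41 ± 0.345 RPM with triptolide, 6.90 ± 0.496 with DRB and 8.46 ± 4.01 with DMSO, an order unlike that of Rack1.

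In the spike-in samples, where S2 cells had been added, the 5 kb region around the start was higher at 2 h than in nascent chromatin at 5 of the 6 members with a listed TSS in reach, against 30.1% of 30618 regions. The deposited values are on a log2 scale, and no source used here states how the S2 reads entered it. Snhg8 had 8.48 and 8.58 at 2 h and 5.41 and 6.25 in nascent chromatin (2.70 ± 0.55). Snhg3 had 9.06 and 8.85 at 2 h and 6.08 and 7.08 in nascent chromatin (2.38 ± 0.58). Snhg12 (1.66 ± 0.56), Snhg1 (1.47 ± 0.54) and Gas5 (1.32 ± 0.53) were called too, and Rack1 was not (0.89 ± 0.53). The median difference over all regions was 0.79. All 5 calls were lost when 2 h replicate 1 or 2 was left out (medians over the 6 members of 1.47 and 1.66). The count was also 0 with the replicate number as a block and with no filter on low values, so these calls depend on the fit.

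The regions differ in how much of the zone past the end they cover. Those of Gas5 and Rack1 end before the gene does and cover 0 bp of it. Those of Snhg8, Snhg3 and Snhg12 cover 1986, 1454 and 941 bp. Snhg5 and Snhg6, whose nearest listed TSSs lie inside the gene, had regions that cover 1684 and 1976 bp, and differences between group means of 2.82 and 1.26 without a test. Snhg5 had 8.64 and 8.65 at 2 h and 5.21 and 6.45 in nascent chromatin.

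Other snoRNA host genes were counted from lists of names, 35 protein-coding hosts, 14 other non-coding hosts and 8 particle genes. Of these, 24, 12 and 7 could be tested past the gene end, and 33 and 11 of the hosts at a start window. Past the gene end, with triptolide at 2 h, 24 of 24 tested protein-coding hosts (median -1.86), 8 of 12 other non-coding hosts (median -1.03) and 6 of 7 genes for core proteins of snoRNA particles (median -0.78) were called lower, against 8.69% of all genes, with a median of -0.01 over all genes and -2.48 over the members. With DRB 24 of 24, 6 of 12 and 2 of 7 were called lower, against 3.05% of all genes, with medians of -1.51, -0.69 and -0.64. The lowest of these were Rps12 (-3.55 ± 0.21 with triptolide) and Rpl27a (-3.08 ± 0.21), which encode ribosomal proteins, Snhg7 (-2.61 ± 0.20) and Zfas1 (-2.33 ± 0.22), and Nop56 (-2.40 ± 0.21), a core protein of box C/D particles, and Nop10 (-1.30 ± 0.21), of box H/ACA particles. With DRB they were Rps12 (-2.83 ± 0.21), Rpl27a (-2.66 ± 0.21), Zfas1 (-2.75 ± 0.22), Snhg7 (-2.28 ± 0.20), Nop56 (-2.63 ± 0.21) and Dkc1 (-0.94 ± 0.19), the pseudouridine synthase.

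Between nascent and 2 h chromatin with DMSO, the zone rose at 21 of 24 protein-coding hosts (median 1.43), 7 of 12 other non-coding hosts (0.76) and 4 of 7 particle genes (0.59), against 8.15% of all genes, led by Rpsa (2.00 ± 0.21), Rps12 (1.95 ± 0.21), Zfas1 (1.90 ± 0.22), Snhg7 (1.39 ± 0.20), Nop56 (1.51 ± 0.21) and Nhp2 (1.02 ± 0.21). The median over the members was 1.96, and over all genes -0.07. At the start windows 22 of 33 protein-coding hosts and 7 of 11 other non-coding hosts were called lower with triptolide at 2 h, against 28.6% of all windows, with medians of -1.32 and -1.03, against -1.18 over the members and -0.29 over all windows. Falls there included those at Rpl10 (-2.41 ± 0.38), Snhg9 (-2.36 ± 0.31) and Zfas1 (-1.84 ± 0.31), while Rpl4 rose (1.00 ± 0.34).

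The start windows whose group means over the 12 inhibitor groups were most like the mean profile of the members, among 14429 genes, were those of Tnpo2 (Pearson's r of 0.994), Orc5 (0.986), Cdk1 (0.985), Fbxo28 (0.985) and Mgat2 (0.983). The 12 points share their libraries and depth. The members' own windows had an r with that mean between 0.357 (Snhg1) and 0.974 (Snhg3). Tnpo2 averaged 3.89 RPM with triptolide, 14.0 with DRB and 10.1 with DMSO in the 2 h EdU libraries, and 2.16, 3.47 and 5.21 in the nascent ones in the same order.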

How the data were processed

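The members and gene lists were chosen with earlier results of these data known. Reads were processed with Trim Galore 0.4.2, Bowtie2 2.2.6.2 and the build mm10, per the submitters' processing notes; no source used here names the peak caller. The deposited inhibitor table holds log2(RPM + 1) in 1 kb windows every 500 bp, per the file headers, and RPM was recovered from these log2 values. Each library's values gave whole reads in 100% of cases (tolerance 0.1 read). The deposited spike-in table holds log2 values of 5 kb regions, and its enhancer part was not used here. The deposited peak lists give positions, per the file headers, for which depth is unknown.

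Each gene took the window nearest a listed TSS within 1000 bp of its RefSeq start (the highest where several were in reach). The zone past the gene end, and its alternatives, were added after the data had been seen. Features needed a signal in 3 libraries (spike-in, 2). The log2(RPM + 1) values were fitted with limma 3.58.1 (trend, R 4.3.3), 1 fit per fraction over its groups, with Benjamini-Hochberg adjustment and a threshold of 0.05; both fractions were joined for EdU against unbound. Tables and figures were made with matplotlib 3.10.9, numpy 2.4.6 and pandas 2.3.3 in Python 3.11.15. The procedure was tested on simulated libraries of the 2 h and nascent DMSO EdU groups alone, and it missed most changes. At start windows 1 of 99 changes of 2-fold and 23 of 97 of 4-fold were called, with 0 false calls. In the zones these were 2 of 100 and 25 of 100, with 3 false calls. Among features with a mean of at least 3 RPM, 20 of 45 changes of 4-fold were called at the starts and 5 of 7 in the zones. Changes of 2-fold there gave 1 of 43 and 0 of 6. At these rates a missing call says little. The simulation fitted these 2 groups alone with a set spread, so its rates need not hold for the fits to the data. Named genes are all members, genes at their windows, the 2 called genes of each list with the largest change in each direction, and the 5 genes most like the members' mean; some genes under this rule are not reported here. No library pair of a group was identical. The alternatives were other pseudocounts (0.25 and 4 RPM), no filter, centring, background scaling, limma-voom on recovered reads, other windows, a replicate block and leaving out each library.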

Additional observations from a re-analysis of the deposited data

Results flagged for a closer look

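The values below were picked out where a difference between groups passed the threshold (limma, adjusted p under 0.05 over all genes or windows tested). The members were chosen with results at their start windows in view, and the zone past the end was chosen after their profiles were seen, so the values are a description and give no independent support. No explanation was tested.

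In the 3 kb past the gene end, the change over 2 h was smaller with triptolide than with DMSO at Gas5 (-2.38), Snhg8 (-2.28), Snhg3 (-2.14), Snhg5 (-1.77), Snhg12 (-1.24), Snhg6 (-1.13), Snhg1 (-1.11) and Rack1 (-1.11). It was smaller with DRB than with DMSO at Snhg3 (-2.55), Gas5 (-2.50), Snhg8 (-2.18), Snhg5 (-1.76), Snhg12 (-1.48), Snhg6 (-1.44), Snhg1 (-1.37) and Rack1 (-1.35).

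The nascent difference between triptolide and DMSO past the end was less negative in the EdU than in the unbound fraction, against 0.898% of genes called in that direction, at Snhg3 (2.28), Gas5 (1.89), Snhg1 (1.59), Snhg5 (1.51), Snhg8 (1.34), Snhg12 (1.28) and Rack1 (1.06). The same held for DRB at Snhg3 (1.68). The low nascent EdU level bounds the fall on the log2(RPM + 1) scale at 7 of 8 members with triptolide. At 2 h the difference between triptolide and DMSO past the end of Snhg8 was more negative in the EdU fraction (-0.91).

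As values only, at the start windows the nascent difference between triptolide and DMSO was more negative in the EdU than in the unbound fraction, against 7.09% of windows, at Snhg6 (-1.41), Snhg5 (-1.32, not called in 8 of the 12 cases with 1 library left out) and Snhg8 (-1.13). At 2 h this held, against 12.6% of windows, at Snhg6 (-1.26), Gas5 (-1.17), Snhg5 (-1.15) and Snhg8 (-0.98). Of the 12 cases with 1 library left out, Gas5 and Snhg5 lost the 2 h call in most and Snhg8 in some.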

How the results depend on the processing

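Values are medians of the log2 difference over the members. They moved by more than the spread between replicates, keeping their direction, under these settings; the cause was not tested. With a pseudocount of 0.25 RPM the medians were, at the starts EdU 2 h versus nascent DRB 1.62, EdU triptolide versus DMSO nascent -0.93 and EdU change with DRB minus DMSO 1.12, and past the end EdU 2 h versus nascent triptolide 0.54, EdU triptolide versus DMSO nascent -1.29, EdU triptolide versus DMSO 2 h -3.19, EdU DRB versus DMSO 2 h -2.72, unbound triptolide versus DMSO nascent -2.94, unbound triptolide versus DMSO 2 h -2.67 and unbound DRB versus DMSO 2 h -2.20. With a pseudocount of 4 RPM the medians were, at the starts EdU 2 h versus nascent triptolide 0.29, EdU 2 h versus nascent DRB 0.82, EdU triptolide versus DMSO nascent -0.43, EdU triptolide versus DMSO 2 h -0.70, EdU triptolide versus DRB nascent -0.16, EdU triptolide versus DRB 2 h -0.70, EdU versus unbound nascent DMSO -0.40, EdU minus unbound triptolide versus DMSO nascent -0.37 and EdU minus unbound DRB versus DMSO nascent -0.44, and past the end EdU 2 h versus nascent DMSO 1.37, EdU 2 h versus nascent triptolide 0.12, EdU triptolide versus DMSO nascent -0.42, EdU triptolide versus DMSO 2 h -1.58, EdU DRB versus DMSO 2 h -1.53, EdU change with triptolide minus DMSO -1.12, EdU change with DRB minus DMSO -1.20, unbound triptolide versus DMSO nascent -1.44, unbound DRB versus DMSO nascent -0.95, unbound triptolide versus DMSO 2 h -1.40, unbound DRB versus DMSO 2 h -1.26, EdU versus unbound nascent DMSO -1.11 and EdU minus unbound triptolide versus DMSO nascent 1.00. With each library centred on its median the medians were, at the starts EdU 2 h versus nascent DRB 1.00, EdU triptolide versus DMSO nascent -0.53, EdU versus unbound nascent DMSO -0.22, EdU minus unbound triptolide versus DMSO nascent -0.47 and spike-in 2 h versus nascent 0.71, and past the end EdU 2 h versus nascent triptolide 0.39. With libraries scaled to background windows the medians were, at the starts EdU 2 h versus nascent DMSO 1.10, EdU 2 h versus nascent DRB 1.83, unbound 2 h versus nascent triptolide -0.45, unbound triptolide versus DMSO 2 h -0.43 and EdU versus unbound nascent DMSO -1.27, and past the end EdU 2 h versus nascent DMSO 2.49, EdU 2 h versus nascent triptolide 0.46, EdU triptolide versus DMSO 2 h -2.75, EdU change with triptolide minus DMSO -1.84, unbound triptolide versus DMSO 2 h -2.49 and EdU versus unbound nascent DMSO -2.43. With the mean of 3 windows the medians were, at the starts EdU triptolide versus DRB nascent -0.51. With limma-voom on recovered reads the medians were, at the starts EdU 2 h versus nascent DRB 1.70, EdU triptolide versus DMSO nascent -0.98, EdU DRB versus DMSO nascent -0.61 and EdU minus unbound triptolide versus DMSO nascent -0.99. With the window at the RefSeq start the medians were, at the starts unbound DRB versus DMSO nascent 0.0856 and EdU versus unbound nascent DMSO -0.95. With 1 window centred 1000 bp past the end the medians were, past the end EdU 2 h versus nascent DMSO 2.33, EdU 2 h versus nascent triptolide 0.0696, EdU triptolide versus DMSO nascent -1.12, EdU DRB versus DMSO nascent -1.01, EdU triptolide versus DMSO 2 h -3.40, EdU DRB versus DMSO 2 h -3.10, EdU change with triptolide minus DMSO -2.16, EdU change with DRB minus DMSO -2.36, unbound triptolide versus DMSO nascent -3.07, unbound DRB versus DMSO nascent -1.80, unbound triptolide versus DMSO 2 h -3.16, unbound DRB versus DMSO 2 h -2.63 and EdU minus unbound triptolide versus DMSO nascent 1.97. With a zone of 5000 bp the medians were, past the end EdU 2 h versus nascent DMSO 1.67, EdU triptolide versus DMSO nascent -0.68, EdU triptolide versus DMSO 2 h -1.92, EdU DRB versus DMSO 2 h -1.80, EdU change with triptolide minus DMSO -1.15, unbound triptolide versus DMSO nascent -1.87, unbound triptolide versus DMSO 2 h -1.76, unbound DRB versus DMSO 2 h -1.51 and EdU versus unbound nascent DMSO -1.42.
Leaving out 1 library each time, the medians ranged for EdU triptolide versus DMSO nascent from -0.98 to -0.67, for EdU DRB versus DMSO nascent from -0.62 to -0.38, for EdU triptolide versus DRB nascent from -0.45 to -0.29, for unbound triptolide versus DMSO nascent from -0.27 to -0.11, for unbound DRB versus DMSO nascent from 0.0727 to 0.27 and for unbound 2 h versus nascent DMSO from -0.18 to 0.0587 at the starts. Past the end, EdU minus unbound for triptolide at 2 h ranged from -0.17 to 0.0298 and changed sign in 4 cases.

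The zones past the end gave 8 of 8 calls at 2 h for either drug in the EdU fraction, for 2 h against nascent with DMSO, for both drugs at both times in the unbound fraction and for EdU against unbound in nascent chromatin, under each alternative run. limma-voom was not run on the zones. Called windows over all starts for triptolide against DMSO at 2 h were 812 higher and 8520 lower, and 1179 and 9656 with limma-voom; for DRB in nascent chromatin 84 and 1003, and 6 and 85. The labels give no shared source for a replicate number, and not every same-numbered pair had a correlation over 0.1 (-0.02 to 0.05 in the EdU fraction, -0.02 to 0.17 in the unbound), so the samples were not treated as paired. These correlations were taken within each fraction. An EdU and an unbound library can come from the same capture, as captured fragments and supernatant. That pairing was not examined, and the comparisons between fractions did not use it. As a hint from the data, 16 of 18 EdU and 14 of 18 unbound libraries correlated best with their own number, and 12 of 45 same-numbered unbound pairs were over 0.1, against 1 of 90 others. A replicate block could move no median, because each number occurs once in every group, so only the calls could differ. It changed 4 counts of called members. At the starts these became 2 lower for unbound 2 h versus nascent triptolide and 1 higher for unbound DRB at 2 h. Past the end the count became 3 higher for EdU minus unbound with DRB in nascent chromatin, and in the spike-in regions 0. Without a filter the spike-in count was 0 as well. No share over all features is given here for these counts. Start windows of few reads limit the calls, so a missing call does not show that values were alike.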
